A study of Mus musculus with 8 samples.

Results

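Cholinergic interneurons of the mouse striatum were taken as the nuclei that the deposited annotation names Chat+ interneuron, with the cluster number in front of the name removed. The rule found 120 nuclei of 55672 annotated nuclei in 18 clusters, a share of 0.216% (exact Clopper-Pearson 95% interval 0.179 to 0.258%, counting error only). They came from 29 of 32 mice, with 0 to 12 nuclei per mouse and a median of 3.

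The mice were 12 weeks old and belonged to 8 inbred strains, with 4 mice of each. The classical laboratory strains were A/J, C57BL/6, 129S1/SvImJ, NZO/HlLtJ and NOD/ShiLtJ, and the wild-derived strains WSB/EiJ, PWK/PhJ and CAST/EiJ, of which the last 2 belong to other subspecies than most laboratory mice. The labels name no transgene and no treatment. Each of 4 batches pooled equal numbers of nuclei from 1 mouse of every strain before loading, with male and female mice balanced, and the sex of single mice was not used here. Nuclei of frozen striatum went through the 10x Multiome assay, in which RNA of the nucleus and accessible chromatin are read together.

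Cholinergic interneurons are the main local source of acetylcholine in the striatum. They are large, fire on their own without synaptic drive and are known for pausing that firing when a salient cue appears. Choline acetyltransferase, encoded by Chat, makes acetylcholine from choline and acetyl-CoA. The choline transporter Slc5a7 returns choline to the terminal, and the vesicular transporter Slc18a3 fills the vesicles. Many striatal cholinergic neurons also carry Slc17a8, the vesicular glutamate transporter VGLUT3.

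Nuclei of the cluster were deep. Their median was 8370.5 UMIs (unique molecular identifiers, the counted RNA molecules), the highest of the 18 clusters, against 6505 in Drd1+ projection neurons, and single nuclei ran from 807 to 16526 UMIs. Of the 120 barcodes, 117 were also in the deposited list of nuclei with open chromatin data. Batch medians were 6402, 9472, 4083 and 10187.5 UMIs for batches 1 to 4, with 27, 41, 22 and 30 nuclei. Median UMIs per nucleus did not differ detectably between strains (permutation test within batch over mice with at least 3 nuclei, F = 0.977, p = 0.496). No barcode was shared between Chat+ nuclei of different batches, although 6 matched an annotated nucleus of another batch by sequence alone.

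The 3 genes that mark the cells were found together in most nuclei. All 3 of Chat, Slc5a7 and Isl1 had a UMI in 69 nuclei, 2 of them in 36, 1 in 14 and none in a single nucleus that held only 807 UMIs. Chat was at 351 CPM (counts per 1000000 UMIs) over the pooled nuclei and had a UMI in 101 of 120. At 2000 UMIs per nucleus, 45.1% of the 113 Chat+ nuclei deep enough held a Chat UMI, against 0.976% of Drd1+ neurons (7 and 135 nuclei were too shallow). Without thinning these shares were 84.2% and 3.39%, at median depths of 8370.5 and 6505 UMIs. Pooled Drd1+ neurons held Chat at 5.79 CPM and Slc5a7 at 0.423 CPM, and the source of these UMIs, free RNA included, was not tested. Isl1, a LIM homeodomain factor of cholinergic development, reached 143 CPM and was also present in Drd1+ neurons at 23.6 CPM. The label therefore matched its markers. These levels are a description without a test, since the clusters were drawn from the same counts.

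The upstream windows of 5 genes that carry this identity are shown because the deposited list of accessible regions covers most of them. Each line gives the 250 bases before the annotated start (RefSeq, GRCm38.p6), 5′ to 3′ on the gene's strand, which is the minus strand for all 5. Capitals mark the matches found in a search of both strands for TAATTA (the homeodomain core), for CTAATG (bound by Isl1-type factors), for TATAAA (the TATA box), for GGGCGG (the GC box), for CCAAT (the CCAAT box), for TGACGTCA (the cAMP element) and for TTCAGCACC (the left part of the REST element).
Chat, chr14:32465910-32466159: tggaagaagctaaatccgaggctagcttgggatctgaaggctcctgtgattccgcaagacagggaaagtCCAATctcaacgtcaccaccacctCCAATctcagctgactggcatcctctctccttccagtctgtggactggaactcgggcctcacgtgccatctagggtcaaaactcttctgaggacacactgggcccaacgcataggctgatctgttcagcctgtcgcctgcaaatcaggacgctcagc
Slc18a3, chr14:32464851-32465100: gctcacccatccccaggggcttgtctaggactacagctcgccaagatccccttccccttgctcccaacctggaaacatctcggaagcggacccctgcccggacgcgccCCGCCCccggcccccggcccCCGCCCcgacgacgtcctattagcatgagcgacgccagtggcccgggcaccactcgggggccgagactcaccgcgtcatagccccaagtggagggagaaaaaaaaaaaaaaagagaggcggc
Slc5a7, chr17:54299035-54299284: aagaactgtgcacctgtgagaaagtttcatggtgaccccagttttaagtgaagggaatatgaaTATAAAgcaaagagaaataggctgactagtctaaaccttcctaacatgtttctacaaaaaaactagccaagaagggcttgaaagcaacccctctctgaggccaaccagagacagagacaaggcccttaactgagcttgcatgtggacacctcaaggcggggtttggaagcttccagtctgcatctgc
Slc17a8, chr10:89599816-89600065: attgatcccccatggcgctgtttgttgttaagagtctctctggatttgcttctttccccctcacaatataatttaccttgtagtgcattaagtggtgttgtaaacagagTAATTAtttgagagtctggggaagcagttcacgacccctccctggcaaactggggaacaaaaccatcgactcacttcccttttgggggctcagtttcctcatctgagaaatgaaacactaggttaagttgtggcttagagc
Isl1, chr13:116309689-116309938: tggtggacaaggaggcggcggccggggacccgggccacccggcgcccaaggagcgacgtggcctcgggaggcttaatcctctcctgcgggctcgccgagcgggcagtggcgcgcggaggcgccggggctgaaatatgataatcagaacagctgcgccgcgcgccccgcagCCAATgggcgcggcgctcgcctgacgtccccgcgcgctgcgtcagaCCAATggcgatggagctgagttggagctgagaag

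The Chat window held 2 CCAAT matches, 181 and 157 bases before the start, and no listed region lay over it, the nearest being 780 bases away. Slc18a3, which sits inside the Chat gene locus, had 2 GC boxes on the opposite strand and lay under the region chr14:32464131-32465130. TATAAA occurred in Slc5a7 187 bases before the start, outside the region chr17:54298180-54299179, which lay over the part of that window nearest the start. A TAATTA match lay 141 bases before the Slc17a8 start shown, under chr10:89599044-89600043. This start is downstream of the other annotated Slc17a8 start, whose window had no match and also lay under a listed region. The Isl1 window had 2 CCAAT matches and lay under chr13:116309385-116310384. Among all 32851 windows of this length, 33.85% held CCAAT, 32.74% GGGCGG, 12.37% TATAAA and 4.84% TAATTA. A listed region lay over 53.14% of them. For this share and the gene counts that follow, a window also took in a short stretch after the start. Of the 20 leading genes described next, 16 were in the promoter table and 14 of those had a region over a window, the exceptions being Chat and Lhx8. Over all genes of that table, 14907 of 27025 (55.2%) had a region over a window. The list was made over nuclei of all clusters and holds positions only, so it does not show in which cells a region was open.

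The genes that set the cluster apart were ranked by the ratio to the highest other cluster, with 5 CPM added to both. Slc5a7 came first at 41.0 (703 CPM, a UMI in 115 nuclei), followed by Chat at 28.3 and Slc17a8 at 25.2. Slc10a4, a vesicular transporter of cholinergic and monoamine neurons, followed at 23.5. Then came Qrfprl, a receptor related to that of RFamide peptides, at 18.4 and Ecel1, a membrane peptidase of neurons, at 16.4. Acly, which makes acetyl-CoA from citrate, stood at 6.21, and Slc25a1, which exports citrate from mitochondria, at 5.01. Further members by falling ratio were Slc7a14, Popdc3, Bves, Lhx8, Cpne4, Prkca, Isl1, Inpp4b, Kctd6 and Elavl2. Elavl2, the last inside the list, was at 4.45 and Kcnt2, the first outside, at 4.18.

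**Figure D1:**
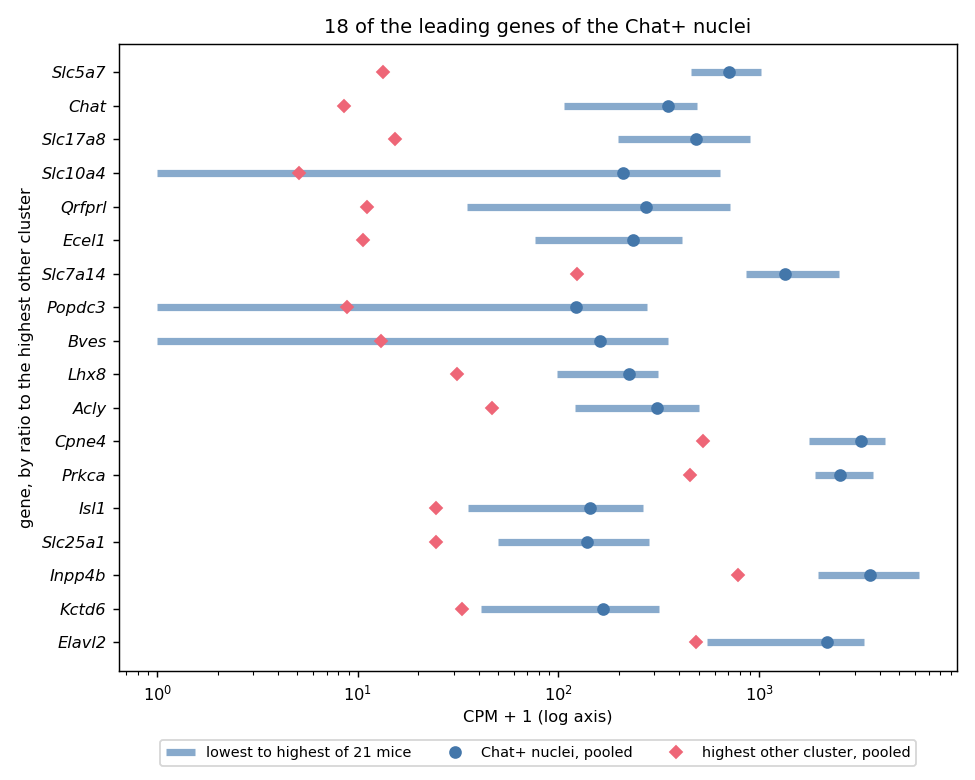
Level of 18 of the 20 leading genes, in CPM plus 1 on a log axis. Blue points are all Chat+ nuclei pooled, blue bars run from the lowest to the highest of 21 mice, and red diamonds are the highest other cluster. For 15 of the genes shown the lowest mouse lies above the highest other cluster, and for Slc10a4, Popdc3 and Bves some mice have no UMI.

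Across all genes with at least 10 UMIs in the cluster, 768 of 9561 (8.03%) were at their highest level in Chat+ nuclei. Of the 7 genes listed for acetylcholine synthesis, storage and breakdown, 5 had that many UMIs and all 5 were highest here. Slc5a7 ranged from 459 to 1024 CPM over 21 mice, with a median of 749 CPM, and Chat from 105 to 491 CPM, with a median of 343 CPM. Slc18a3 was low, at 47.7 CPM with a UMI in 34 nuclei. Ache, the enzyme that splits acetylcholine, was at 132 CPM, against 98.0 CPM in Sst+ interneurons. Prima1, which anchors that enzyme in the membrane of neurons, was at 234 CPM, against 97.1 CPM in oligodendrocytes. Colq, the anchor used in muscle, had no UMI.

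Among 9 transcription factors, 6 had at least 10 UMIs and 3 were highest in Chat+ nuclei, Isl1, Lhx8 and Nkx2-1. Lhx8, needed for the cholinergic fate, stood at 223 CPM, against 30.2 CPM in Nxph1+ interneurons and 0.356 CPM in Drd1+ neurons. Nkx2-1, a factor of the medial ganglionic eminence, was at 29.0 CPM, close to the 28.6 CPM of Nxph1+ interneurons. Zic1 reached 110 CPM (55 nuclei) and Zic4 47.7 CPM (34 nuclei), both below fibroblasts. Lhx6, a factor of other interneurons from the same origin, had 11 UMIs in 11 nuclei, at 11.4 CPM against 195 CPM in Sst+ interneurons. At least 1 of Zic1 and Zic4 was seen in 70 nuclei, whose median depth was 9473 UMIs, and neither in 50, whose median was 6397.5 UMIs. Of the 11 nuclei with Lhx6, 3 also had Zic1 or Zic4. Depth and these combinations moved together, and the part of depth in them was not tested.

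Slc17a8 was the main co-transmitter gene, at 482 CPM with a UMI in 104 nuclei and 197 to 904 CPM over mice. The GABA-synthesis genes were low, with Gad1 at 46.7 CPM against 108 CPM in Drd1+ neurons and Gad2 at 86.1 CPM against 166 CPM there. Gad1 or Gad2 had a UMI in 70 nuclei, 62 of which also held Slc17a8. The vesicular GABA transporter Slc32a1 was at 10.4 CPM against 51.9 CPM in Drd1+ neurons. The vesicular monoamine transporter Slc18a2 was at 11.4 CPM and Th, the first enzyme of dopamine synthesis, at 4.15 CPM.

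Receptors for dopamine and acetylcholine were few. Drd2, the inhibitory dopamine receptor, stood at 324 CPM against 437 CPM in Drd2+ neurons, and ranged from 82.9 to 561 CPM over mice. Drd5, a receptor coupled to cyclic AMP production, was at 12.4 CPM, the highest of any cluster, and Drd1 had 4 UMIs in all. Chrm2, the inhibitory muscarinic receptor M2, was at 603 CPM with a UMI in 100 nuclei, beside 568 CPM in Sst+ interneurons. Of the 14 muscarinic and nicotinic receptor genes, 8 had no UMI among the 964078 UMIs of the cluster, Chrm4, Chrm5, Chrna2, Chrna3, Chrna4, Chrna5, Chrna6 and Chrnb3. A count of 0 here allows up to 3.11 CPM, by the rule of 3 counts.

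Among receptors for peptides and opioids, Tacr1, the substance P receptor, was most abundant, at 1023 CPM with a UMI in 114 nuclei. Only Sst+ interneurons had more, at 1143 CPM. Tacr3, the neurokinin B receptor, was at 78.8 CPM against 6.39 CPM in the next cluster. The delta opioid receptor gene Oprd1 reached 161 CPM, the highest of any cluster, and the mu receptor gene Oprm1 149 CPM. Crhr1, the receptor of corticotropin-releasing hormone, was at 42.5 CPM. Npy1r, Crhr2, Sstr1, Sstr3 and Sstr4 had no UMI. Of the 14 genes, 5 had at least 10 UMIs and 3 were highest in Chat+ nuclei.

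The neurotrophin receptor genes Ntrk2 (228 CPM) and Ntrk3 (271 CPM) were both below Drd1+ neurons. Ngfr and Gal mark cholinergic projection neurons of the neighbouring basal forebrain. Ngfr had 1 UMI and Gal none, which allows up to 3.11 CPM for Gal.

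Of 19 genes for pacemaking and firing channels, 17 had at least 10 UMIs and 4 were highest in Chat+ nuclei, among them Hcn3, Hcn4 and Cacna1b. Hcn4, a pacemaker channel, was at 29.0 CPM against 2.61 CPM in Sst+ interneurons. Cacna1b, the N-type calcium channel, was at 408 CPM and Cacna1d, an L-type channel, at 739 CPM. Kcnd2, an A-type potassium channel, was abundant at 3651 CPM but lower than the 6039 CPM of Drd1+ neurons. None of the 5 metabotropic glutamate receptor genes with enough UMIs was highest here. Grm5 was at 210 CPM, against 4521 CPM in Drd1+ neurons.

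For each list of markers of another cell type, the summed level was lower than in at least 1 other cluster. The 9 projection neuron markers summed to 721 CPM, including the 324 CPM of Drd2, against 5073 CPM in Drd1+ neurons. The 10 markers of other interneuron classes summed to 148 CPM, above the 52.7 CPM of Drd1+ neurons, of which Nxph1 gave 118 CPM (2.60 in Drd1+ neurons and 2703 in Nxph1+ interneurons). Of the same list, Sst was at 9.34 CPM, Npy at 7.26 CPM and Kit at 0. The neuroblast markers Dcx and Sox11 summed to 145 CPM, also above Drd1+ neurons (50.8 CPM). The 4 astrocyte markers summed to 24.9 CPM (38.7 in Drd1+ neurons) and the 4 oligodendrocyte markers to 876 CPM (1198 in Drd1+ neurons).

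The doublet caller removed more cholinergic barcodes than the cluster holds. Among the 65394 barcodes that passed the authors' quality filter as singlets by genotype, 399 carried at least 2 of Chat, Slc5a7 and Slc10a4. DoubletFinder called 273 of these doublets (68.4%), against 6446 of the 64995 other barcodes (9.92%). Within 5000 to 10000 UMIs the shares were 62.7% and 11.1%, and above 10000 UMIs 78.9% and 32.2%. By batch, 76.6, 45.7, 85.5 and 51.3% of marker-carrying barcodes were called doublets, against 7.91, 8.30, 17.5 and 8.10% of all barcodes, so batch 3 was highest on both counts.

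The called barcodes resembled the cluster in the genes that were compared. Chat stood at 309 CPM in them and 351 CPM in the cluster, Slc5a7 at 645 and 703 CPM, Slc17a8 at 387 and 482 CPM and Isl1 at 140 and 143 CPM. The summed level of projection neuron markers without Drd2 had a median of 252 CPM in the 273 barcodes (quartiles 127 and 450) and 242 CPM in the cluster (quartiles 107 and 458). It was 4994 CPM in Drd1+ neurons and 2449 CPM in 130 droplets that held 2 strains by genotype and carried the cholinergic markers. Above 3041 CPM, the 10th percentile of Drd1+ neurons, lay 1 of the 120 cluster nuclei, 3 of the 273 called barcodes and 42 of the 130 mixed droplets. Astrocyte and macrophage markers were higher in the called barcodes, with Gja1 at 23.0 against 3.11 CPM and Csf1r at 18.8 against 3.11 CPM. The median depth was also greater, at 10655 UMIs. Markers were part of the choice of these barcodes, so their levels carry no test, and whether a barcode holds more than 1 nucleus was not tested.

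**Figure D2:**
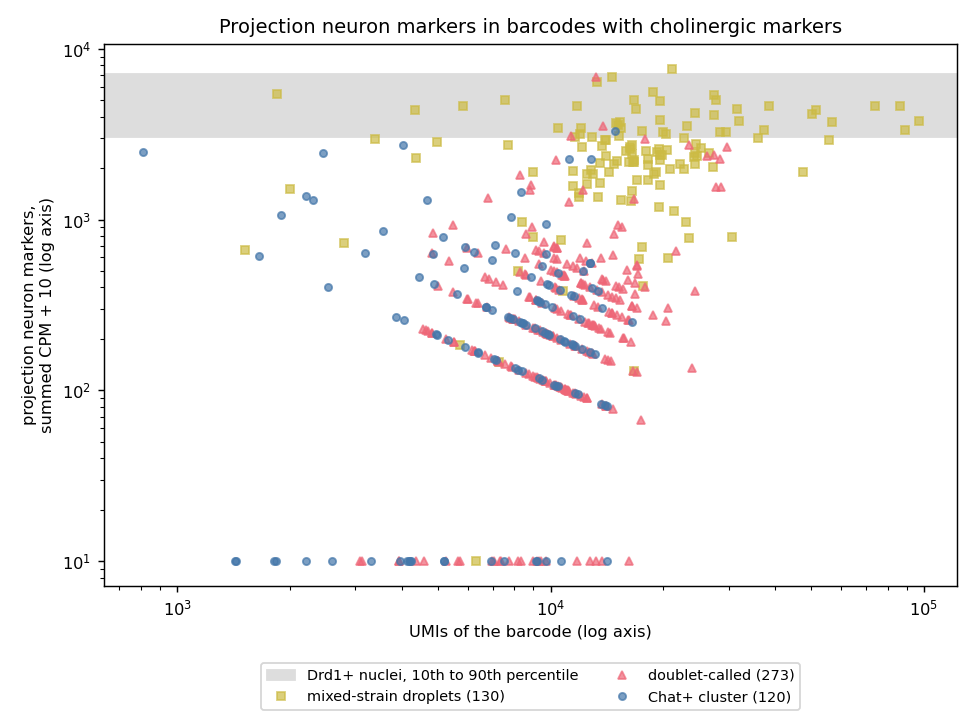
Summed projection neuron markers without Drd2 (CPM plus 10, log axis) against the UMIs of each barcode (log axis). Blue points are the 120 cluster nuclei, red triangles the 273 doublet-called barcodes, yellow squares 130 mixed-strain droplets and the grey band the 10th to 90th percentile of Drd1+ nuclei; blue and red points overlap at low values, and the mixed droplets lie mostly higher.

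The number of cholinergic nuclei recovered differed most in PWK/PhJ. In PWK/PhJ the 4 mice had shares of 0.283, 0.696, 0.489 and 0.495% of their nuclei in batches 1 to 4, a mean of 0.491% ± 0.169 (SD, n = 4). This was the highest share of any strain in every batch. The other means were 0.230% ± 0.173 in NZO/HlLtJ, 0.193% ± 0.0704 in A/J, 0.191% ± 0.0630 in 129S1/SvImJ and 0.170% ± 0.145 in NOD/ShiLtJ, and then 0.137% ± 0.0569 in C57BL/6, 0.136% ± 0.0950 in CAST/EiJ and 0.124% ± 0.0920 in WSB/EiJ (SD, n = 4 each). The CAST/EiJ, NOD/ShiLtJ and WSB/EiJ mice of batch 3 had 0 nuclei, which allows shares of up to 0.318, 0.236 and 0.210%.

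The comparison over all 8 strains did not pass after adjustment (permutation test within batch, F = 2.21, p = 0.0497, adjusted p over 18 clusters = 0.179). Each strain was also set against the other 7. This comparison was not planned beforehand, and its p-values are adjusted over the 8 strains and not over the 18 clusters. PWK/PhJ was 2.91 times the others (geometric means with 0.5 nuclei added, exact permutation test, two-sided, p = 0.000244, the smallest that 4096 assignments allow, adjusted p over 8 strains = 0.00195). The other 7 strains had adjusted p from 0.530 to 0.855 in the same exact permutation test. With the doublet-called barcodes added, the PWK/PhJ ratio was 1.70 and no longer passed (exact permutation test, p = 0.00952, adjusted p = 0.0762). The means were then 1.24% ± 0.979 in PWK/PhJ and 0.504 to 0.847% in the other strains. Batch 3 supplied 28 of the 43 added PWK/PhJ barcodes and 20 of the 34 added CAST/EiJ barcodes. More nuclei in the tissue and more nuclei kept by the filters cannot be told apart here.

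**Figure D3:**
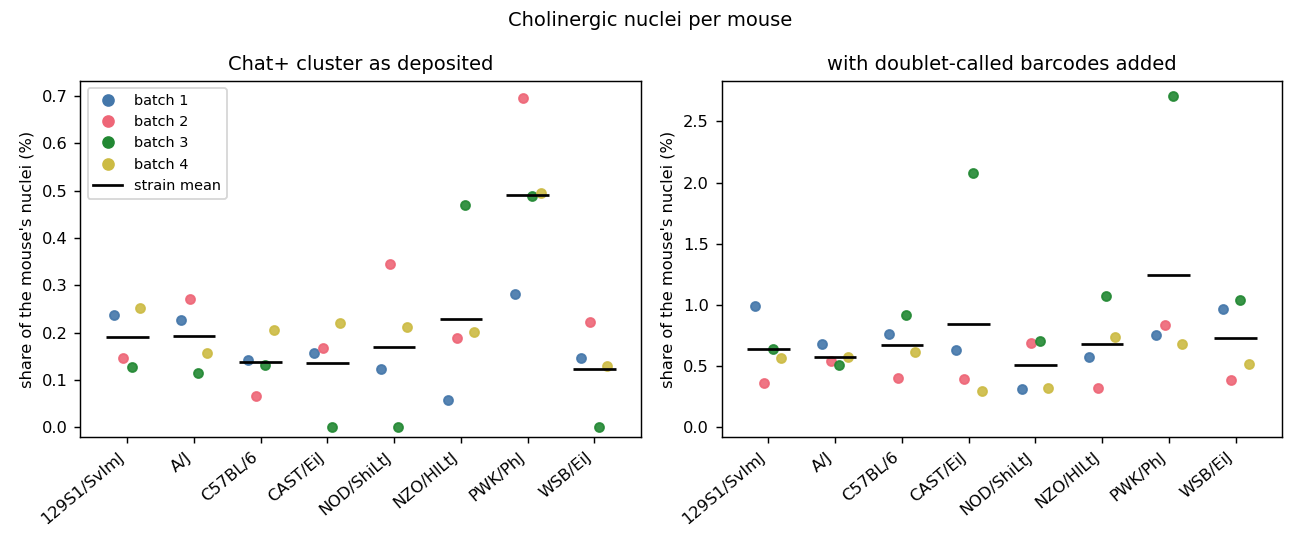
Share of cholinergic nuclei among the nuclei of each mouse (%), by strain, with 1 point per mouse coloured by batch and a bar at the mean of 4 mice. The left panel shows the deposited cluster, where PWK/PhJ is highest in each batch; the right panel adds doublet-called barcodes and has batch 3 mice of PWK/PhJ and CAST/EiJ at 2.71 and 2.07%.

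To ask how genetic background changes expression in these neurons, counts were summed per mouse. Only the 21 mice with at least 3 nuclei entered, 2 to 4 per strain, with 20299 to 104680 counts per library and a median of 32561. Of 915 genes tested, 35 (3.83%) were called by the strain term at an adjusted p under 0.05, and 129 had an unadjusted p under 0.05. Against the mean of the other 7 strains, 15 genes were higher (1.64%) and 11 lower (1.2%) in PWK/PhJ. CAST/EiJ had 11 higher (1.2%) and 4 lower (0.437%), A/J 11 higher (1.2%) and 3 lower (0.328%), and WSB/EiJ 2 higher (0.219%) and 1 lower (0.109%). Single genes were called in 129S1/SvImJ and NZO/HlLtJ (higher) and in NOD/ShiLtJ (lower). None was called in C57BL/6 by edgeR or by DESeq2, with 57 genes at an unadjusted p under 0.05 in edgeR. Libraries differed in number between strains, from 2 to 4, and the counts of calls cannot be compared as sizes of strain effects.

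AC149090.1, a gene model without an established role, had the largest F statistic. In CAST/EiJ its 3 mice were at 2217, 1597 and 2654 CPM, and in PWK/PhJ its 4 mice at 1809, 2054, 1943 and 2842 CPM. In A/J the values were 35.1, 41.5 and 0 CPM, and in NOD/ShiLtJ 69.5 and 187 CPM, so these 2 pairs of strains did not overlap. The log2 fold change against the other strains was 2.35 ± 0.24 (SE) in CAST/EiJ, 2.51 ± 0.21 in PWK/PhJ, −4.33 ± 0.46 in A/J and −2.28 ± 0.42 in NOD/ShiLtJ (adjusted p = 2.04e-08, 1.89e-10, 6.96e-08 and 0.00584). Without batch 2, NOD/ShiLtJ keeps 1 library, assumed to vary like the others, and its call was lost (log2 fold change −1.71, adjusted p = 0.722). The means of Drd1+ neurons were 119 CPM in A/J, 117 CPM in NOD/ShiLtJ, 1425 CPM in PWK/PhJ and 2468 CPM in CAST/EiJ.

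Cwc22, a splicing factor, was raised in WSB/EiJ, at 1658 and 1536 CPM. The 19 libraries of other strains lay between 0 and 98.5 CPM. The log2 fold change was 5.59 ± 0.48 (SE, adjusted p = 4.67e-10). Drd1+ neurons of WSB/EiJ were at 1590 CPM ± 115 (SD, n = 4), and their means in other strains at 31.2 to 54.4 CPM. Cwc22 is known to have extra copies in some strains, and reads of such copies cannot be told apart in the counts.

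Plpp4, a lipid phosphatase, was raised in CAST/EiJ, at 739, 878 and 599 CPM, above all 18 other libraries (55.2 to 376 CPM). Its log2 fold change was 2.17 ± 0.29 (SE, adjusted p = 6.25e-06), and the strain term was lost without batch 2 (adjusted p = 0.0948). With doublet-called barcodes added it was still called in CAST/EiJ (log2 fold change 1.45, adjusted p = 2.92e-05). In Drd1+ neurons Plpp4 was nearly absent, with strain means of 0.359 to 1.13 CPM. Nkain2, a partner of the sodium pump, fell in CAST/EiJ to 197, 200 and 143 CPM, below all other libraries (540 to 1821 CPM; log2 fold change −2.48 ± 0.39 SE, adjusted p = 1.32e-04). The strain term of Nkain2 was lost without batch 4 (adjusted p = 0.106) and stood with doublet-called barcodes added (4.30e-09).

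Catspere2, which encodes a subunit of the sperm calcium channel, was raised in PWK/PhJ, at 459, 525, 435 and 422 CPM. WSB/EiJ mice at 341 and 461 CPM overlapped it, and all others were at or below 306 CPM. The log2 fold change was 1.81 ± 0.27 (SE, adjusted p = 8.62e-05), and the strain term was lost without batch 2 (adjusted p = 0.0730). Ankrd44, an ankyrin-repeat subunit of a protein phosphatase, fell in PWK/PhJ to 189, 153, 0 and 156 CPM, below all 17 other libraries (204 to 1084 CPM). Its log2 fold change was −1.96 ± 0.33 (SE, adjusted p = 4.42e-04), and without batch 2 the strain term was lost (adjusted p = 0.126). Both genes were called in PWK/PhJ with the doublet-called barcodes added (adjusted p = 9.74e-11 for Catspere2 and 2.72e-09 for Ankrd44).

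Pdzrn4, a ubiquitin ligase of the PDZ family, was high in 129S1/SvImJ (446 and 1060 CPM) and low in PWK/PhJ (81.0, 28.7, 100.5 and 93.7 CPM). C57BL/6 and NZO/HlLtJ mice, at 239 to 821 CPM, overlapped the 129S1/SvImJ range. The log2 fold change was 1.81 ± 0.35 (SE, adjusted p = 0.0111) in 129S1/SvImJ and −2.10 ± 0.38 (adjusted p = 0.00108) in PWK/PhJ. Without batch 4, which leaves 1 library of 129S1/SvImJ, the strain term of Pdzrn4 (adjusted p = 0.0671) and its 129S1/SvImJ call (log2 fold change 1.19, adjusted p = 1) were lost, and that call also without batch 2 (1.79, adjusted p = 0.0711). Hs6st3, an enzyme that sulfates heparan sulfate, was higher in A/J (2278, 2125 and 2314 CPM; log2 fold change 1.40 ± 0.27 SE, adjusted p = 0.00353) than in every other library, the next being 1742 CPM. It was lower in PWK/PhJ, at 134 to 459 CPM (log2 fold change −1.69 ± 0.32 SE, adjusted p = 0.00202). An NZO/HlLtJ mouse at 194 CPM lay inside that range. The Hs6st3 means of Drd1+ neurons were 2598 CPM in A/J and 2523 CPM in PWK/PhJ, above the Chat+ libraries of both strains. Etl4 was raised in WSB/EiJ, at 1366 and 1996 CPM, against at most 1089 CPM elsewhere (log2 fold change 1.70 ± 0.30 SE, adjusted p = 0.00154), a call lost without batch 2, which leaves 1 library of WSB/EiJ (1.33, adjusted p = 0.491).

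**Figure D4:**
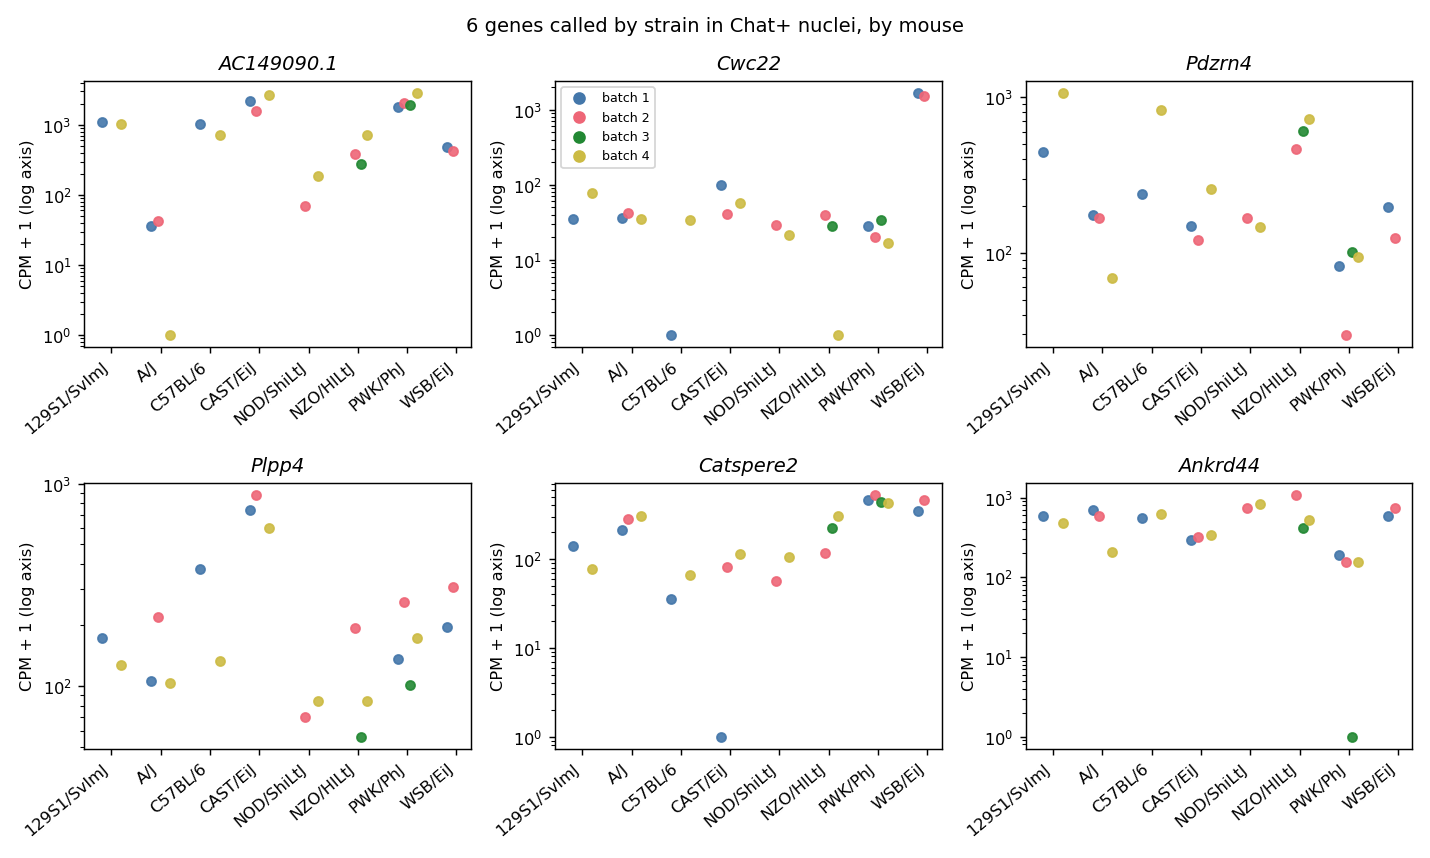
Level of 6 genes called by strain in Chat+ nuclei, in CPM plus 1 on a log axis, with 1 point per mouse and colour for the batch (21 mice). Cwc22 is high in both WSB/EiJ mice, Plpp4 in the 3 CAST/EiJ mice, Catspere2 in PWK/PhJ with WSB/EiJ close by, and Ankrd44 is lowest in PWK/PhJ.

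Projection neuron markers were high in 3 libraries of A/J and NZO/HlLtJ. The 8 markers without Drd2 summed to 1804 CPM in the A/J mouse of batch 4 and to 1269 and 995 CPM in the NZO/HlLtJ mice of batches 3 and 4, against 92.1 to 480 CPM in the other 18 libraries. In the other A/J mice they were at 315 and 384 CPM and in the other NZO/HlLtJ mouse at 348 CPM (batches 1 and 2, and batch 2). Cntn5, an adhesion protein of the contactin family, was at 105, 581 and 1123 CPM in A/J (batches 1, 2 and 4). In NZO/HlLtJ it was at 77.4, 193 and 912 CPM (batches 2, 3 and 4), and not highest in the mouse with the most of these markers. Its A/J call (log2 fold change 2.98 ± 0.46 SE, adjusted p = 3.50e-04) was lost with doublet-called barcodes added (0.39, adjusted p = 0.959), and its strain term without batch 2 (0.0521) or 4 (0.145). Sgcd, a sarcoglycan, was at 386, 705 and 1259 CPM in A/J (1.59 ± 0.30 SE, adjusted p = 0.00232) and was lost in the same way (adjusted p = 0.823), and without the 6 nuclei at or above 2000 CPM of these markers (0.0960), without batch 2 (0.0579) and without batch 4 (0.177). Both genes were highest in the A/J mouse with the most of these markers. Lrrtm4, a synaptic adhesion protein, was at 2825, 1407 and 2847 CPM in NZO/HlLtJ (batches 2, 3 and 4; 1.85 ± 0.35 SE, adjusted p = 0.0182), lowest in the mouse with the most of these markers. It was lost without those 6 nuclei (adjusted p = 0.510), batch 3 (0.0954) or batch 4 (0.210) and called with doublet-called barcodes added (1.34, adjusted p = 1.62e-10). Rbfox1, a splicing regulator, was at 2980, 1907 and 3778 CPM in A/J (batches 1, 2 and 4), also highest in the mouse with the most of these markers. In NZO/HlLtJ it was at 929 CPM in the mouse of batch 2 and at 2262 and 2598 CPM in the other 2, which had more of these markers. It was called higher in A/J (1.05 ± 0.21 SE, adjusted p = 0.00404) and lower in WSB/EiJ (−1.59 ± 0.37 SE, adjusted p = 0.0466), and neither call held with doublet-called barcodes added (0.878 and 0.288). The WSB/EiJ call was also lost without any 1 of the batches (−1.42 to −1.85, adjusted p = 0.0507 to 0.483), and the Rbfox1 strain term without batch 1 (0.0599). In A/J, Cntn5 and Rbfox1 had higher means in Drd1+ neurons (3642 and 8181 CPM) than in Chat+ nuclei (603 and 2888 CPM). For Sgcd in A/J the Drd1+ mean of 299 CPM was below the Chat+ mean of 783 CPM. For Lrrtm4 in NZO/HlLtJ the Drd1+ mean of 1985 CPM was also below the Chat+ mean of 2360 CPM. The part of projection neuron RNA in these calls was not tested beyond these values. Without the 6 nuclei, 25 of the 34 called genes still tested were called.

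Few of the listed cholinergic genes could be tested for strain in the deposited cluster. Of 87 genes in the 9 lists, 25 had enough counts to be tested and 0 were called by edgeR, with 3 at an unadjusted p under 0.05 (Kcnj3, Grm5 and Grm7), while DESeq2 called 1 (Grm7). With 3.83% of all tested genes called, 0 of 25 is near the background and is no result about the lists. Their median F statistic was 1.25, against 1.14 over all 915 genes. Chat had its lowest value in an A/J mouse (105 CPM) and its highest in a WSB/EiJ mouse (491 CPM), and Slc5a7 its lowest in a PWK/PhJ mouse (459 CPM) and its highest in a WSB/EiJ mouse (1024 CPM). For both genes the ranges of strains overlapped widely.

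With the 273 doublet-called barcodes added to the 120 nuclei, all 32 mice had a library, and 282 of 3697 genes (7.63%) were called by strain. This set was chosen after the data were seen. Chat, Slc5a7 and Slc10a4 chose the added barcodes and are left out of the counts that follow. Of the other genes in the 9 lists, 38 were then tested and 8 called, with a median F statistic of 2.15 against 1.18 over all genes. Cholinergic markers chose the added barcodes, and the lists were made with earlier results known, so this is no test of the lists. Doublet-called barcodes were 43 of 73 in PWK/PhJ and 41 of 50 in WSB/EiJ, and the part of this difference in the calls was not tested. Among the 8 called genes were Tacr3, Tacr1, Oprm1, Prima1, Kcnj3 and Cacna1c. The values of listed genes given next are those of this larger set unless the deposited cluster is named.

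Tacr3 had no UMI in the 32 NOD/ShiLtJ barcodes (12 cluster nuclei and 20 doublet-called), in any of 4 mice, among 333941 UMIs. The other strains together had 363 UMIs and 97.6 CPM. A limit of 3 counts over the pooled NOD/ShiLtJ barcodes, 8.98 CPM, puts this strain at least 10.9-fold below that pooled level. This bound covers counting error only and not the spread between mice or between the other strains. The deposited cluster alone also had 0 Tacr3 UMIs in both NOD/ShiLtJ libraries, against 25.2 to 205 CPM in the other 19. C57BL/6 was highest, at 161 CPM ± 46.5 (SD, n = 4; log2 fold change 1.99 ± 0.33 SE, adjusted p = 3.55e-04). CAST/EiJ, at 27.6 CPM ± 8.91, was the lowest of the strains with any UMI. The contrasts of Tacr3 in the other strains include NOD/ShiLtJ in their mean, whose fitted value has no lower bound.

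Tacr1 was raised in WSB/EiJ, at 1521 CPM ± 207 (SD, n = 4) against strain means of 704 to 999 CPM (log2 fold change 0.80 ± 0.13 SE, adjusted p = 6.05e-05). Both WSB/EiJ libraries of the deposited cluster, at 1463 and 1505 CPM, were also among the highest, though an A/J mouse was at 1718 CPM. Oprm1 was raised in PWK/PhJ, at 207 CPM ± 38.0 (SD, n = 4; 1.12 ± 0.21 SE, adjusted p = 2.60e-04), and lowered in NOD/ShiLtJ, at 45.2 CPM ± 23.4 (−1.52 ± 0.38 SE, adjusted p = 0.0380). In the deposited cluster Oprm1 had its lowest mean in NOD/ShiLtJ as well (34.7 CPM), but its highest in A/J (272 CPM), ahead of PWK/PhJ (252 CPM).

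Of the 3697 genes of the larger set, 100 were called higher and 100 lower in PWK/PhJ, the most of any strain. Some other listed genes were among the lower ones. Kcnj3, a potassium channel opened by G proteins, was at 106 CPM ± 47.1 in PWK/PhJ (SD, n = 4), against means of 200.4 to 318 CPM (log2 fold change −1.31 ± 0.23 SE, adjusted p = 1.01e-04). Prima1 was at 141 CPM ± 33.5 there (SD, n = 4), against 168 to 293 CPM (−0.76 ± 0.20 SE, adjusted p = 0.0111). In the deposited cluster PWK/PhJ also had the lowest mean of Kcnj3 (90.7 CPM), but for Prima1 it was at 187 CPM, above CAST/EiJ at 162 CPM and close to NOD/ShiLtJ at 191 CPM. Ntrk2 (−0.62 ± 0.18 SE, adjusted p = 0.0313) and Kcnn2 (−0.95 ± 0.23 SE, adjusted p = 0.00826) were called lower in PWK/PhJ, though the strain term called neither. Cacna1c (adjusted p = 0.00857) was called by the strain term alone, with no single strain called.

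Strain patterns were then set against those of Drd1+ neurons, the largest cluster, of the same 21 mice. The interaction of strain and cluster was called for 137 of 14389 genes (0.952%), with 663 at an unadjusted p under 0.05. Most of the genes tested are too low in Chat+ libraries to be tested there alone, and 80 of the 137 are among the 915 genes of the Chat+ fit. With p-values adjusted over those 915 genes only, 121 were called. Of the genes described above, the interaction of AC149090.1 (adjusted p = 0.600), Nkain2 (0.773), Catspere2 and Cwc22 (1 for both) was not called, which does not show that their patterns are alike. With doublet-called barcodes added, AC149090.1 (5.83e-06) and Nkain2 (0.00106) were called.

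Slc17a8 had the largest interaction (adjusted p = 1.34e-53). In Chat+ nuclei its level did not pass the strain test (adjusted p = 0.703), CAST/EiJ lying at 399 to 739 CPM, PWK/PhJ at 328 to 904 CPM and the other strains at 197 to 666 CPM. In Drd1+ neurons it was at 38.4, 42.3, 25.5 and 36.0 CPM in the CAST/EiJ mice and at 24.4, 33.5, 31.4 and 36.0 CPM in the PWK/PhJ mice. The other 24 mice were between 0 and 1.03 CPM, and all 4 C57BL/6 mice at 0. Drd2+ neurons showed the same split, with means of 30.3 CPM in CAST/EiJ and 20.4 CPM in PWK/PhJ and at most 0.467 CPM elsewhere. Slc5a7 was at 0.688 CPM in Drd1+ neurons of CAST/EiJ and 0.422 CPM in those of PWK/PhJ, within the 0.0744 to 0.776 CPM of the 8 strains. Chat was at 0.915 CPM in Drd1+ neurons of CAST/EiJ, the lowest mean, and at 10.7 CPM in those of PWK/PhJ, the highest.

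**Figure D5:**
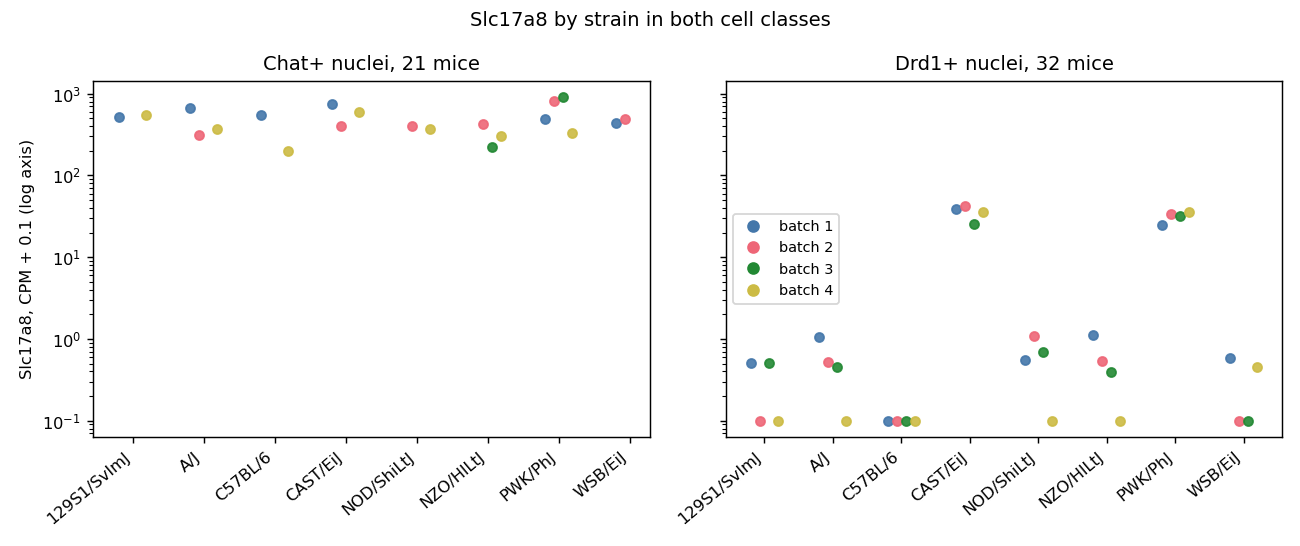
Slc17a8 by strain, in CPM plus 0.1 on a log axis, with 1 point per mouse and colour for the batch. All 21 Chat+ libraries on the left lie between 197 and 904 CPM, while on the right Drd1+ neurons of CAST/EiJ and PWK/PhJ (24.4 to 42.3 CPM) lie above the other 24 mice.

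Ankrd44 ran in opposite directions (interaction adjusted p = 1.48e-35). PWK/PhJ was lowest in Chat+ nuclei, at 0 to 189 CPM, and highest in Drd1+ neurons, at 27.7 CPM ± 5.30 (SD, n = 4) against means of 2.01 to 9.37 CPM. Lrrtm4 was highest in NZO/HlLtJ in Chat+ nuclei, whereas its Drd1+ mean of 1985 CPM in that strain was near the lowest of 1930 to 3340 CPM (interaction adjusted p = 3.65e-11, and 2.07e-28 with doublet-called barcodes added). Adarb2 (adjusted p = 2.39e-14) and Cntn5 (4.08e-12) were also called, and neither held with doublet-called barcodes added (0.117 and 0.936). Adarb2, an RNA-editing relative without known enzyme activity, was 0 in all 3 NZO/HlLtJ and both WSB/EiJ Chat+ libraries. It varied widely within other strains, at 68.4 and 657 CPM in C57BL/6 and at 0 and 404 CPM in 129S1/SvImJ. The PWK/PhJ libraries lay at 0 to 156 CPM and those of A/J at 238 to 596 CPM. With Nxph1+ interneurons in place of Drd1+ neurons, Slc17a8 (0.0288) and Ankrd44 (0.0241) were called and Adarb2, Cntn5 and Lrrtm4 were not (adjusted p of 1, 0.47 and 0.835).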

How the data were processed

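Nuclear RNA of 32 mice was deposited as 4 matrices, 1 per batch of 8 pooled mice. The authors deposited whole-number UMI counts per gene and barcode, with no normalization, and a table of categories per barcode (unit other), used unchanged. Per the submitters' processing notes, bcl2fastq 2.20.0.422 and Cell Ranger ARC 2.0.0 were used, with the builds mm10 and GRCm38. Reads of all strains were thus counted on 1 reference, and the effect of that on strain differences was not tested. Per the file descriptions deposited with the data, barcodes were assigned to strains by Demuxlet on RNA and chromatin reads. Nuclei with over 200 and under 7500 genes and under 15% mitochondrial counts were kept, and DoubletFinder calls and nuclei judged not biologically relevant were removed. The deposited strain name C57BL/6NJ differs from the design text's C57BL/6J, so C57BL/6 is written here.

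The nuclei of a mouse were summed, and libraries of under 3 nuclei left out. A robust edgeR 4.0.16 quasi-likelihood fit (R 4.3.3) with TMM scaling and filterByExpr (minimum count 10) held strain and batch. Adjusted p-values are Benjamini-Hochberg over all genes tested. The interaction used the mouse as a block. CPM are counts over the library's total, and over all nuclei of a cluster where no mouse is named. Shares were compared by permuting strains within batch (100000 resamples, or all 4096 assignments for 1 strain) with Python 3.11.15, numpy 2.4.6 and scipy 1.17.1. Alternatives included DESeq2 1.42.0, other filters and each batch left out. The fits were also run on simulated data with the same spread for all genes of a cluster, no batch effect and changes in PWK/PhJ alone. Its outcome is not reported here and does not cover spreads that differ by gene or strains with fewer libraries. Batch is a shared pool per the labels and was a block throughout. Deviations of 52 same-batch library pairs had a mean correlation of 0.0346, against -0.0130 for 139 other pairs.

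Named genes were the 20 leading genes (at least 100 CPM), the 10 largest F statistics of the strain term, up to 3 per strain, the 5 largest interactions and the listed genes. The members and lists were chosen with earlier results of these data known. Each mouse is 1 sample, and p-values measure the spread between mice and their pools. Chromatin signal per nucleus was not analysed here, and some listed genes are not reported here.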

Additional observations from a re-analysis of the deposited data

Results flagged for a closer look

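The number of barcodes with at least 2 of 3 cholinergic markers that the doublet caller removed was 273, or 68.4% of those that passed the quality filter, in data that the annotation leaves out. The strain pattern differed between Chat+ and Drd1+ nuclei, by the interaction test in edgeR, for Slc17a8 (adjusted p = 1.34e-53), Ankrd44 (1.48e-35), Adarb2 (2.39e-14), Cntn5 (4.08e-12) and Lrrtm4 (3.65e-11). The Sgcd level of the PWK/PhJ mouse of batch 4, 656 CPM, stood apart from the other 3 mice of that strain, at 189 to 268 CPM. Chance sets about 1 in 20 such groups apart, and 23 groups were looked at.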

How the results depend on the processing

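The number of genes called by strain, 35, was 89 without a filter, 67 at a minimum count of 5, 282 with doublet-called barcodes added (chosen after seeing the data) and 17 to 47 with 1 batch left out. Calls of single strains, 61 in all, were 122 without a filter, 40 without the 10% of nuclei with most UMIs, 461 with doublet-called barcodes added and 34 to 79 with 1 batch left out. The interaction, 137 genes, gave 34 with Nxph1+ interneurons, 618 with doublet-called barcodes added and 62 to 104 with 1 batch left out. The PWK/PhJ share was 0.77 above the others (log2) with doublet-called barcodes added, against 1.54. Without the replicate block for batch, 31 genes were called by strain, 77 in single strains and 203 by the interaction, and the permutation p was 0.296 for the share (adjusted), 0.592 for UMIs and 0.00339 for PWK/PhJ (unadjusted). The Adarb2 interaction was then lost (adjusted p = 0.0683). DESeq2 called 36 genes, 27 of them among the 35. Direction was followed for 15 gene calls of single strains and for the PWK/PhJ share, and no alternative reversed it. The direction of the other calls was not followed in this way. A minimum of 5 nuclei could not be fitted. Libraries of few nuclei limit the tests to abundant genes. The counts of calls above also rest on different numbers of genes tested. By strain these were 915 in the main fit, 16804 without a filter, 2626 at a minimum count of 5 and 3697 with doublet-called barcodes added. For the interaction they were 14389 in the main fit, 4442 with Nxph1+ interneurons and 13713 with doublet-called barcodes added.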
